A study of Homo sapiens with 6 samples.

Results

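The genes described here are the 5 subunits of the transcription factor NF-kB (NFKB1, NFKB2, REL, RELA and RELB) and 5 genes that hold it in check (NFKBIA, NFKBIB, NFKBIE, NFKBIZ and TNFAIP3). They were picked by symbol, and all 10 were found among the 38637 genes of the table. RNA sequencing was performed on OVCAR8, a line of human ovarian cancer cells with no engineered genotype, treated for 72 h with DMSO, the solvent, or with 2 nM pladienolide B, which inhibits the splicing factor SF3B1. There were 3 samples per group, and nothing in the labels says whether they came from separate cultures, so the p-values measure the spread between these samples, which may be technical. OVCAR8 is a single established line, and the comparison rests on 1 dose and 1 time.

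NF-kB proteins bind DNA as pairs drawn from the 5 subunits. RELA, RELB and REL carry domains that activate transcription, whereas NFKB1 and NFKB2 are made as long precursors that are trimmed to DNA-binding partners and that, untrimmed, retain other subunits in the cytoplasm. The inhibitor proteins encoded by NFKBIA, NFKBIB and NFKBIE keep the pairs in the cytoplasm until a kinase complex marks them for destruction, and several of the inhibitor genes are themselves induced by NF-kB, which closes a feedback loop. The classical arm ends mainly in pairs of RELA with the NFKB1 product, and the alternative arm in pairs of RELB with the NFKB2 product. The study reported, from gene set enrichment analysis of RNA sequencing of OVCAR8 cells, that pladienolide B enriched TNF-NF-kB signalling, among other inflammatory pathways. It counted this among its evidence for pyroptosis, a form of cell death. That test was not repeated here.

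NF-kB binds a short DNA motif known as the kB consensus, and the stretches shown here are matches to its letters near the starts of the subunit and inhibitor genes. Binding was not measured. RefSeq sequences on GRCh38.p14, from 250 bases before to 50 bases after an annotated start, covered 14 starts of 8 of the genes and were searched on both strands. RELB and NFKBIE were not in this set. At least 1 match stood near a start of 7 of the 8 genes, against 7.09% of the 27305 genes with a sequence. Counted by sequence, 9 of the 14 held a match, against 5.91% of the 35116 sequences of all genes. Genes with more starts have more chances of a match. No match was found at either RELA start, which says only that these letters were not in these windows. Each line below gives 30 bases, 5′ to 3′ along the gene, with the letters of the match in capitals.

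NFKB1, earlier start, chr4:102501300-102501329 (+), 49 to 40 bases before it: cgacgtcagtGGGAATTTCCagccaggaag
REL, chr2:60881517-60881546 (+), 47 to 37 bases before the start: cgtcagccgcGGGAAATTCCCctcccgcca
NFKB2, middle start, chr10:102394461-102394490 (+), 107 to 97 bases before it: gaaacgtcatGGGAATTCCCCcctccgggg
NFKB2, last start, chr10:102395674-102395703 (+), 21 to 12 bases before it: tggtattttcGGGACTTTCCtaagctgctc
NFKBIA, chr14:35404811-35404840 (-), 81 to 72 bases before the start: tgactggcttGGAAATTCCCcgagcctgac
NFKBIB, later start, chr19:38899931-38899960 (+), 28 to 18 bases before it: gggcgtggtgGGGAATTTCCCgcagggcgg
NFKBIZ, earlier start, chr3:101827757-101827786 (+), 223 to 214 bases before it: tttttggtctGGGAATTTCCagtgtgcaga
TNFAIP3, a pair of sites, chr6:137867188-137867217 (+), 67 to 46 bases before the start: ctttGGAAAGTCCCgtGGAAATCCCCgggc

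The same 10 letters, GGGAATTTCC, read on either strand, stood near NFKB1, REL, NFKBIA, NFKBIB and NFKBIZ, 5 of the 7 genes with a match. Over all genes they stood in 51 sequences, 0.145% of all searched, where 2075 sequences held any match. The count of 5 of 7 is by gene and only among genes with a match, so this share has another base. These letters were named after the matches were seen. The form GGGACTTTCC stood near TNFAIP3, on the opposite strand, and near the last NFKB2 start, and in 0.191% of all sequences. Where a run of 11 capitals is printed, the motif matched at overlapping positions. A further 3 sites, 2 near NFKB2 and 1 near a later NFKBIZ start, are not printed.

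The authors deposited, for each gene and sample, a read count adjusted to a common library size, called adjusted reads below. The underlying whole reads could be recovered and came to between 22621338 and 26130882 per sample. Reads of the 10 genes were at least 435 in every sample. The DMSO samples were not equally close to each other. The chi-square per degree of freedom, which is 1 where counting error alone acts, was 1.98 between DMSO replicates 1 and 3, and 7.31 and 7.24 between DMSO replicate 2 and these. Between pladienolide B replicates it lay between 3.09 and 4.56. Epithelial and Müllerian markers were present, with PAX8 at 4108 ± 84.6 and KRT8 at 41458 ± 2125 adjusted reads (SD, n = 3) in DMSO, whereas WT1, KRT19 and MUC16 stayed under 34 in every sample. By limma, KRT7 and MSLN of the same list fell in pladienolide B, with log2 fold changes of -0.64 and -0.44. KRT8 and KRT18 rose, with 0.27 and 0.29. Of 10 markers of blood, endothelial and stromal cells, PTPRC, CD3E and MS4A1 had at most 2 adjusted reads in any sample, DCN at most 2.07 and CD14 at most 19.7, and PECAM1, VWF and COL1A2 between 17.2 and 81.5. CD68, a lysosomal protein used as a marker of macrophages, rose from 1146 ± 86.5 to 1526 ± 58 adjusted reads (SD, n = 3, limma, adjusted p = 2.35e-05). COL1A1, a collagen chain, fell from 6800 ± 126 to 5901 ± 373 (SD, n = 3, limma, adjusted p = 0.00138). Their part in the results was not tested.

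To ask how much of each transcript the cells carried, adjusted reads were divided by the length of the canonical GENCODE transcript. The inhibitor gene NFKBIA stood highest in DMSO, at 2625 ± 112 adjusted reads per kb (SD, n = 3), followed by RELA at 1821 ± 101 and NFKB2 at 1610 ± 128. NFKB1 followed at 635 ± 28.7, RELB at 492 ± 73.9 and NFKBIB at 469 ± 26.3. The lowest levels per kb were those of NFKBIE at 217 ± 9.4, NFKBIZ at 165 ± 5.3, TNFAIP3 at 140.0 ± 8.5 and REL at 46.3 ± 2.9. The ranges of RELB and NFKBIB overlapped in DMSO, and every other pair of neighbours in this order was separate, RELA and NFKB2 only narrowly (1705 at the lowest against 1685 at the highest). Per length, OVCAR8 cells carried mainly RELA, NFKB2 and NFKBIA transcripts and very little REL, a subunit best known from lymphocytes. The transcripts that were counted may differ in length from the canonical ones, as REL shows with its canonical transcript of 11.11 kb.

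**Figure D1:**
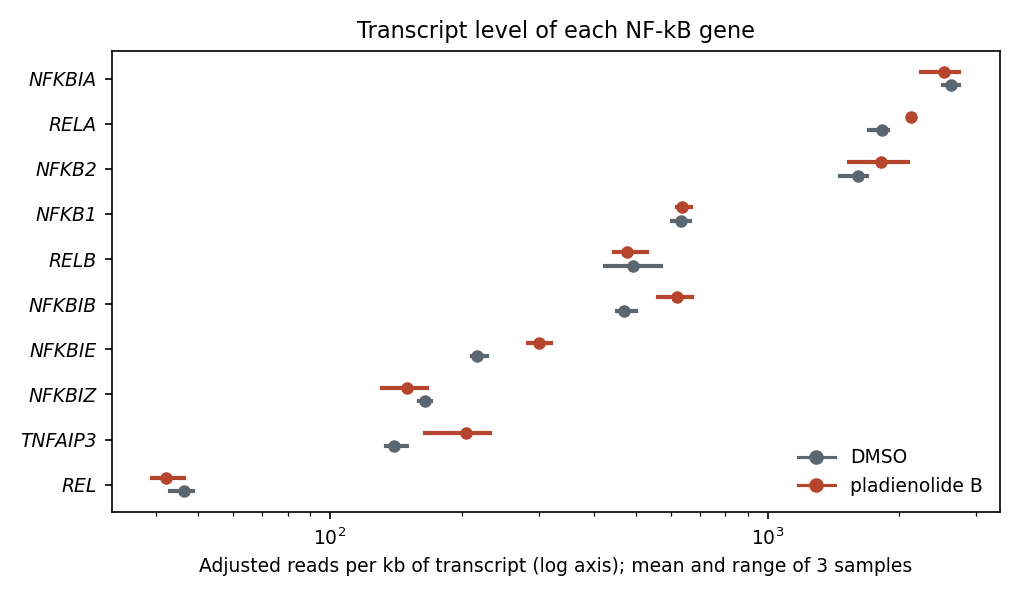
Transcript level of the 10 genes in adjusted reads per kb of the canonical transcript on a log axis, with DMSO in grey and pladienolide B in red; points are means and lines the range of 3 samples. NFKBIA, RELA and NFKB2 lie highest in both groups and REL lowest, and NFKBIB moves from the RELB level up to the NFKB1 level.

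In pladienolide B, NFKBIA (2525 ± 254 per kb), RELA (2128 ± 6.0) and NFKB2 (1815 ± 278) were again the 3 highest. NFKBIB reached 620 ± 55.4 per kb, which overlapped NFKB1 at 637 ± 26.0 and no longer overlapped RELB at 477 ± 45.7. TNFAIP3 had the higher mean of the pair that it forms with NFKBIZ, 205 ± 35.3 against 150 ± 17.7 per kb, although the ranges touched (165 at the lowest and 167 at the highest).

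The comparison of pladienolide B with DMSO was made with limma on log2(adjusted reads + 1) over the 16178 genes that passed a filter on low values, and all 10 genes passed it. With Benjamini-Hochberg adjustment over all of them, RELA, NFKBIB, NFKBIE and TNFAIP3 rose and the other 6 genes did not pass the threshold of 0.05. Thus 4 of 10 were called, where 47.6% of all genes tested were, so the number of changed genes was close to the background. All 4 were higher, where 22.4% of all genes were called higher, and 0 were lower, where 25.2% were. At an unadjusted p under 0.05, limma and DESeq2 gave 4 higher and edgeR's quasi-likelihood test 5, and each of these tools gave 0 lower. The shares of all genes at that unadjusted p were 25.8% higher and 28.1% lower by limma, 24.3% and 25.1% by DESeq2, and 26.1% and 27.9% by edgeR. The groups did not overlap for 4 of 10 genes, all higher in pladienolide B, where they did not overlap for 55.3% of all genes, 26.4% higher and 28.8% lower. None of the 10 genes changed 2-fold. Without DMSO replicate 2, the sample farthest from its group, the same 4 genes passed, with log2 fold changes from 0.18 for RELA to 0.51 for TNFAIP3. In these bulk samples, more or fewer cells of a kind and more or less RNA per cell cannot be told apart.

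**Figure D2:**
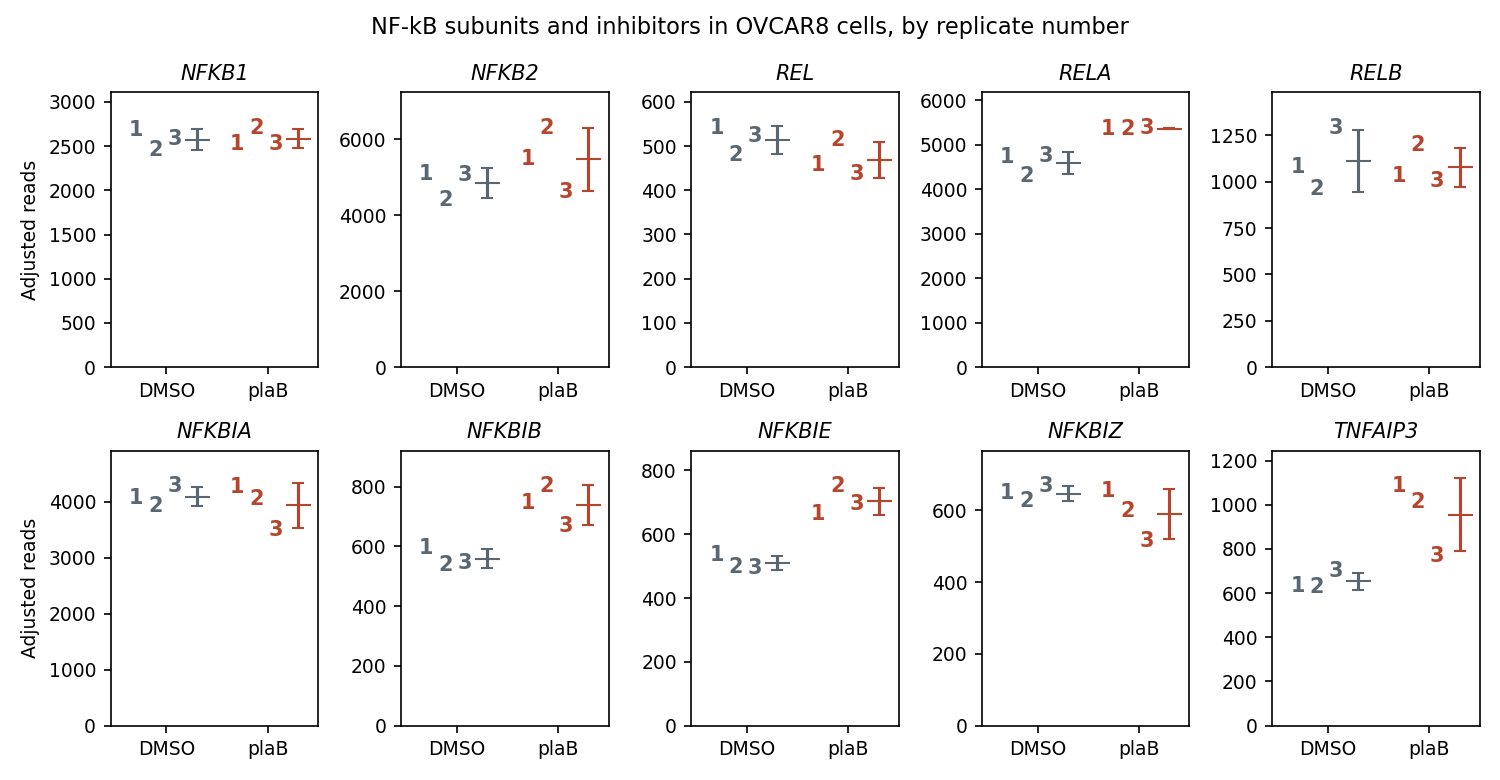
Adjusted reads of the 10 genes in DMSO (grey) and pladienolide B (red, plaB), from 0 upwards; each digit is the replicate number of a sample, and the bars give the mean and SD of 3 samples. For RELA, NFKBIB, NFKBIE and TNFAIP3 each pladienolide B sample lies above each DMSO sample, and replicate 3 is the lowest pladienolide B sample for 8 of the 10 genes.

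RELA, the main activating subunit of the classical arm, lies on chromosome 11 from 65653601 to 65662946 on the - strand (gene spans here and below are those of the table, on hg38). It had 4724, 4291 and 4737 adjusted reads in DMSO replicates 1 to 3 and 5352, 5346 and 5374 in pladienolide B. The treated samples were nearly equal to each other and all above the controls. Its log2 fold change was 0.23 ± 0.04 (SE, limma, adjusted p = 0.000508), a rise of 17.0%, and its 95% interval ran from 0.13 to 0.32. Without DMSO replicate 2, the lowest of the controls, it was 0.18 (limma, adjusted p = 0.000211).

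NFKB1, on chromosome 4 from 102501266 to 102617302, encodes the precursor of the usual partner of RELA. Its adjusted reads were 2688, 2456 and 2583 in DMSO and 2526, 2707 and 2521 in pladienolide B, so that the groups overlapped throughout. The log2 fold change was 0.01 (limma, adjusted p = 0.942) and its 95% interval, from -0.10 to 0.11, was the narrowest but for that of RELA. NFKB1 overlaps 2 antisense long noncoding RNAs in the table, each with a mean of at most 16.7 adjusted reads in either group.

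NFKB2, on chromosome 10 from 102394110 to 102402529, encodes the precursor of the alternative arm. It had 5081, 4408 and 5070 adjusted reads in DMSO and 5489, 6304 and 4627 in pladienolide B. Replicates 1 and 2 of pladienolide B were above every control, whereas replicate 3 fell between the controls. The log2 fold change was 0.17 (limma, adjusted p = 0.103), with a 95% interval from -0.01 to 0.34. This call turned on a single library, because without pladienolide B replicate 3 the value was 0.28 (limma, adjusted p = 0.00495), and without replicate 2 it was 0.06. Without DMSO replicate 2 it was 0.10.

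RELB, the activating partner in the alternative arm, lies on chromosome 19 from 45001449 to 45038194. Its adjusted reads were 1081, 961 and 1290 in DMSO and 1031, 1196 and 1005 in pladienolide B, with overlapping groups and a log2 fold change of -0.04 (limma, adjusted p = 0.755). The sign turned to 0.08 without DMSO replicate 3 and to 0.01 without pladienolide B replicate 3. REL, on chromosome 2 from 60881521 to 60931612, had 541, 479 and 523 adjusted reads in DMSO and 457, 514 and 436 in pladienolide B. Replicate 2 of pladienolide B lay among the controls, and the log2 fold change was -0.13 (limma, adjusted p = 0.188, 95% interval from -0.31 to 0.04). It was -0.20 without pladienolide B replicate 2 and -0.08 without replicate 3, and passed in neither case.

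NFKBIA, the inhibitor best known as a rapid target of NF-kB, lies on chromosome 14 from 35401513 to 35404749 on the - strand. The 120 bases before its start (chr14:35404750-35404869, on the - strand) are shown because NFKBIA, alone among the 3 classical inhibitor genes, did not pass the test, and the kB match is in capitals.

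NFKBIA promoter: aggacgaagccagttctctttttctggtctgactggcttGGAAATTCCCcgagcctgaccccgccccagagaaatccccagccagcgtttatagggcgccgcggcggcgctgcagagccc

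NFKBIA had 4074, 3926 and 4275 adjusted reads in DMSO and 4268, 4041 and 3498 in pladienolide B. Replicates 1 and 2 of pladienolide B lay within the controls and replicate 3 below them. Its log2 fold change was -0.06 (limma, adjusted p = 0.434), and the 95% interval from -0.19 to 0.07 leaves room for a fall or a rise of limited size. The sign turned to 0.02 without pladienolide B replicate 3.

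The other classical inhibitor genes both rose. NFKBIB, on chromosome 19 from 38899503 to 38908894, had 595, 539 and 543 adjusted reads in DMSO and 745, 801 and 669 in pladienolide B, with no overlap. The log2 fold change was 0.40 ± 0.08 (SE, limma, adjusted p = 0.000356), a rise of 31.8%. NFKBIB shares 231 bases at its start with SIRT2 and 724 bases at its end with CCER2, both on the opposite strand, and the sources used here do not state whether reads were assigned by strand. SIRT2 had a log2 fold change of -0.24 and CCER2, the less abundant of these, one of 0.52. Their part in the NFKBIB value was not tested.

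NFKBIE, on chromosome 6 from 44258166 to 44265551 on the - strand, had 534, 498 and 494 adjusted reads in DMSO and 664, 750 and 694 in pladienolide B. Every treated sample was above every control. The levels rose 1.38-fold, which is 0.46 ± 0.07 on the log2 scale (SE, limma, adjusted p = 4.36e-05), with a 95% interval from 0.32 to 0.61. The whole gene lies inside the span that the table gives for POLR1C, which covers 944312 bases on the opposite strand. POLR1C, a subunit of RNA polymerases, went from 612 to 769 adjusted reads, a log2 fold change of 0.33 (limma, adjusted p = 0.00116), and reads shared by both genes were not examined.

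The ratio of one inhibitor transcript to another within a sample does not depend on library size. There were 0.131, 0.127 and 0.116 adjusted reads of NFKBIE for each adjusted read of NFKBIA in DMSO, and 0.156, 0.186 and 0.199 in pladienolide B. For NFKBIB the ratio to NFKBIA was 0.146, 0.137 and 0.127 in DMSO and 0.175, 0.198 and 0.191 in pladienolide B. Both ratios were higher in every treated sample, a description only, since these pairs were chosen after the values were seen.

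NFKBIZ encodes an atypical nuclear inhibitor that can also act as a coactivator, on chromosome 3 from 101827990 to 101861022. It had 648, 626 and 667 adjusted reads in DMSO and 654, 598 and 516 in pladienolide B, and the groups overlapped through replicate 1. The log2 fold change of -0.14 did not pass (limma, adjusted p = 0.163). Without pladienolide B replicate 1 it was -0.22 (limma, adjusted p = 0.0475), just past the threshold, and without replicate 3 it was -0.05 (limma, adjusted p = 0.644). NXPE3, which shares 242 bases with NFKBIZ on the same strand, had a log2 fold change of -0.49 (limma, adjusted p = 1.22e-05).

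TNFAIP3 encodes a ubiquitin-editing enzyme that switches NF-kB signalling off upstream of the inhibitors, and over all 6 samples it had the largest change of the 10 genes. On chromosome 6 from 137866317 to 137883312, it had 633, 627 and 699 adjusted reads in DMSO and 1083, 1014 and 770 in pladienolide B. Replicate 3 lay closer to the controls than to the other treated samples, yet above each control. The log2 fold change was 0.53 ± 0.10 (SE, limma, adjusted p = 0.000221), a rise of 44.9%. The value was 0.44 without pladienolide B replicate 1, when that of NFKBIE was larger at 0.50, and 0.68 without replicate 3, and all 13 alternatives to the fit kept it past the threshold. WAKMAR2, the antisense neighbour that overlaps its start, had means under 3 adjusted reads.

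**Figure D3:**
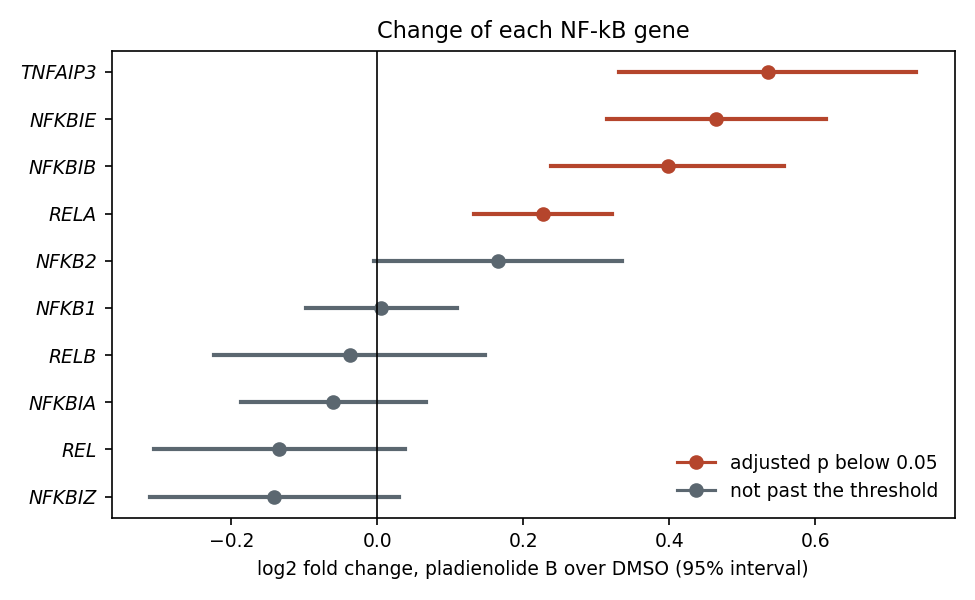
Log2 fold change of each gene, pladienolide B over DMSO, with its 95% interval from limma; red marks an adjusted p below 0.05. The intervals of TNFAIP3, NFKBIE, NFKBIB and RELA lie above 0, and those of the other 6 genes include 0.

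The balance among subunits and inhibitors was tested for 4 ratios with a two-sided exact permutation test over the 6 samples. This test cannot go below 0.1 with 3 against 3, and its p-values were adjusted over these 4 tests. RELB to RELA and NFKB2 to NFKB1 set subunit against subunit, and the others set inhibitors against subunits. The log2 ratio of NFKBIA to RELA was -0.16 ± 0.05 in DMSO and -0.45 ± 0.15 in pladienolide B (SD, n = 3, exact p = 0.1, adjusted p = 0.2). This ratio was lower in each treated sample than in each control. RELB to RELA, the alternative over the classical activating subunit, went from -2.05 ± 0.16 to -2.32 ± 0.14 (SD, n = 3, exact p = 0.1, adjusted p = 0.2) without overlap, although only narrowly (-2.159 at the lowest control and -2.161 at the highest treated sample). NFKB2 to NFKB1 was 0.91 ± 0.07 in DMSO and 1.07 ± 0.18 in pladienolide B (SD, n = 3, exact p = 0.3, adjusted p = 0.3). The sum of the 3 classical inhibitors over the sum of the 5 subunits was -1.40 ± 0.05 and -1.48 ± 0.08 (SD, n = 3, exact p = 0.3, adjusted p = 0.3), with overlapping groups. None of the 4 passed a threshold of 0.05, which this test cannot reach with 3 samples against 3.

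Within a group, the same sample tended to be the lowest. In DMSO, replicate 2 was the lowest sample for 9 of the 10 genes, where it was the lowest for 35.7% of all genes tested. In pladienolide B, replicate 3 was the lowest for 8 of the 10, against 34.3% of all genes, RELA and NFKBIE being the others. The median log2 difference from the group's mean was -0.06 over the 10 genes in DMSO replicate 2 and -0.12 in pladienolide B replicate 3, whereas the median of all genes tested was within 0.01 of 0 in each sample. For a hand-written list of known NF-kB target genes this median was -0.16 in pladienolide B replicate 3 but only -0.03 in DMSO replicate 2. In DMSO replicate 3 it was 0.03, of like size in the other direction. Of 34 target genes tested, 23 were lowest in replicate 3 among the pladienolide B samples, and 19 were lowest in replicate 2 among the DMSO samples. The deviations of single genes in pladienolide B replicate 3 reached -0.30 for TNFAIP3 and -0.23 for NFKB2. These genes share their libraries, so the counts are a description.

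**Figure D4:**
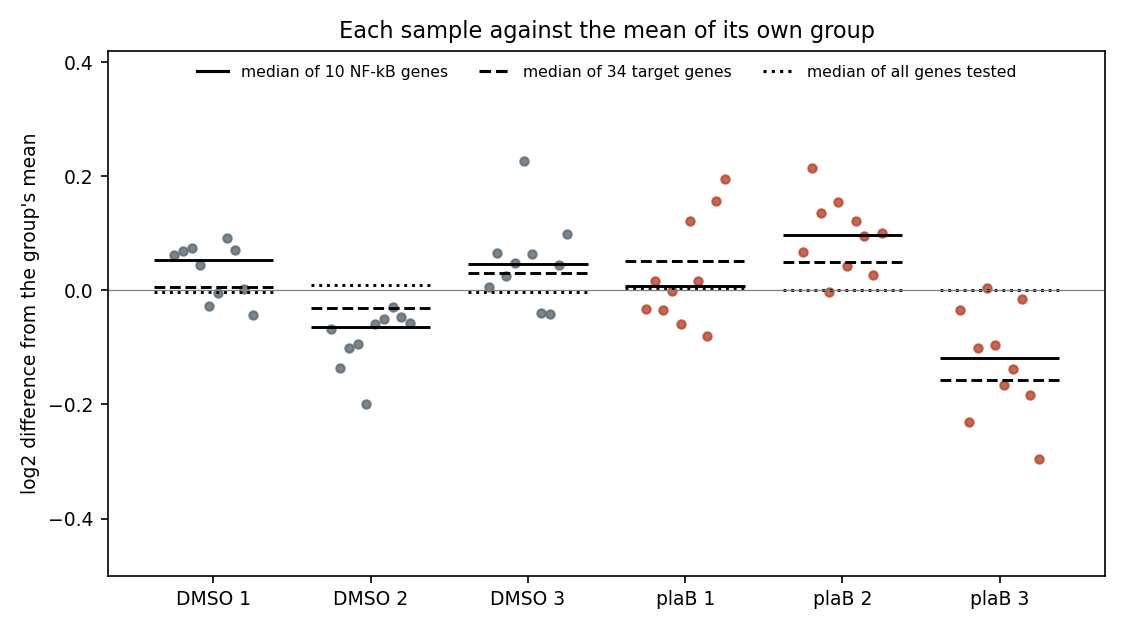
Log2 difference of each of the 10 genes from the mean of its own group in each sample (points; grey DMSO, red pladienolide B), with the median of the 10 genes, of 34 target genes and of all genes tested. The points of DMSO replicate 2 all lie below 0, and those of pladienolide B replicate 3 lie below 0 for 9 of the 10 genes, while the median of all genes stays near 0.

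The rest of the pathway was described with 6 hand-written lists of 138 genes, of which 120 were tested. By limma, 48 of these rose and 19 fell, 40% and 15.8%, against 22.4% and 25.2% of all genes tested. The median log2 fold change was 0.12 over the 120 genes and 0.00 over all genes. The lists were written with earlier results of these data known, and the counts support no claim about the pathway as a whole.

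**Figure D5:**
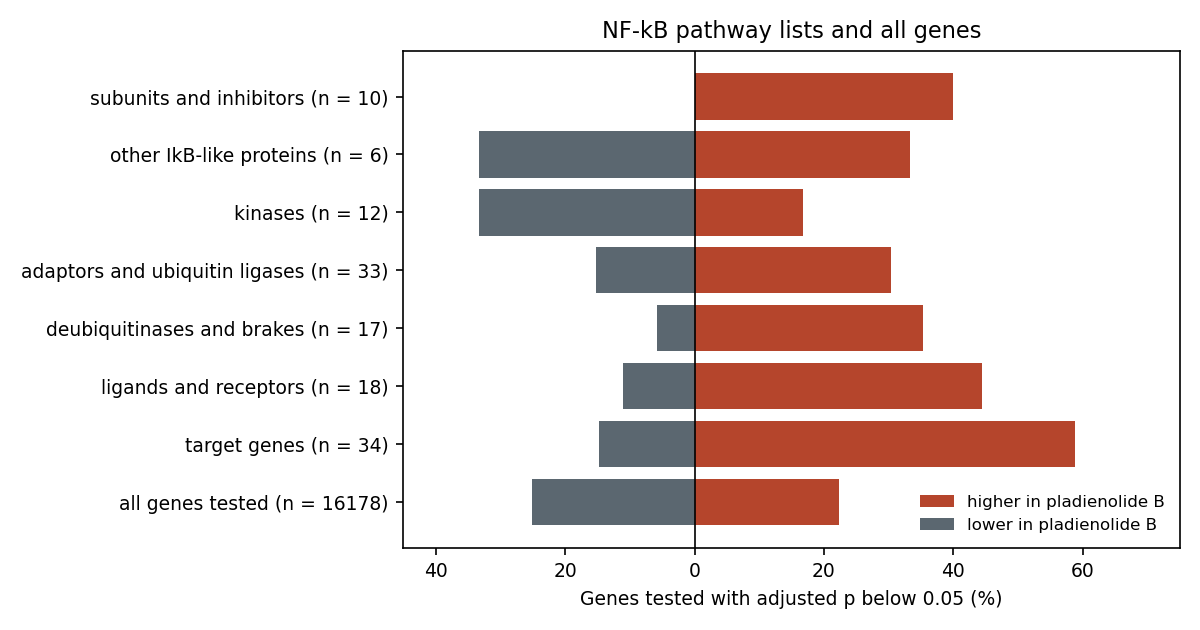
Share of the genes tested in each list with an adjusted p below 0.05 by limma, higher in pladienolide B to the right (red) and lower to the left (grey), in percent. Target genes were called higher in 58.8% of cases, against 22.4% of all genes tested. Kinases were called lower in 4 and higher in 2 of 12 cases, with 2 lower without pladienolide B replicate 2. For kinases this is 33.3% lower and 16.7% higher, against 25.2% and 22.4% of all genes tested.

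Among the ligands and receptors that start the signal, 8 of 18 tested genes rose and 2 fell, with 1 fall without DMSO replicate 3. As shares, 44.4% rose and 11.1% fell, against 22.4% and 25.2% of all genes tested. IL1B, the secreted cytokine that signals to NF-kB through IL1R1, rose from 494 ± 16.7 to 2723 ± 757 adjusted reads (SD, n = 3, limma, adjusted p = 3.38e-10), with 2872, 3394 and 1902 in pladienolide B replicates 1 to 3. IL1R1, its receptor, rose from 99.2 ± 6.41 to 207 ± 18.1, a log2 fold change of 1.05 (limma, adjusted p = 3.61e-06). The co-receptor IL1RAP fell by 0.46 on the log2 scale and TLR3, a sensor of double-stranded RNA, by 0.74, which did not pass without DMSO replicate 3 (limma, adjusted p = 0.0516). TNF itself rose from 342 ± 27.3 to 605 ± 122 adjusted reads and was named after its values were seen.

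The kinases that release NF-kB had 2 rises and 4 falls among 12 tested genes, and 2 falls without pladienolide B replicate 2. As shares, 16.7% rose and 33.3% fell, against 22.4% and 25.2% of all genes tested. In either direction 50% were called, close to the 47.6% of all genes tested. MAP3K14, the kinase that starts the alternative arm, rose from 614 ± 29.1 to 950 ± 51.7 adjusted reads (SD, n = 3), a log2 fold change of 0.63 (limma, adjusted p = 6.63e-07). IKBKG, the regulatory subunit of the kinase complex that marks the inhibitors, rose by 0.40. MAP3K7, which activates that complex in the classical arm, fell by 0.36 on the log2 scale and MAP3K8 by 0.32, but the call for MAP3K8 was lost in 7 of 13 alternatives, among them DESeq2 (adjusted p = 0.0531), limma without the variance trend (adjusted p = 0.0572) and each omission of 1 sample but that of DMSO replicate 2.

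Of 33 adaptors and ubiquitin ligases, 10 rose and 5 fell, with 6 rises without the variance trend and 3 falls without pladienolide B replicate 1. As shares, 30.3% rose and 15.2% fell, against 22.4% and 25.2% of all genes tested. In either direction 45.5% were called, close to the 47.6% of all genes tested. TIRAP, an adaptor of toll-like receptors, had a log2 fold change of 0.75 from 67.6 ± 13.1 to 113 ± 8.18 adjusted reads (SD, n = 3), and SQSTM1, a scaffold and autophagy receptor, one of 0.59 from 18818 ± 1165 to 28312 ± 1902. TRADD, the adaptor of the TNF receptor, fell by 0.55 on the log2 scale and UBE2V1, a partner in the ubiquitin chains of this pathway, by 0.40. Of 17 tested deubiquitinases and other brakes, 6 rose and 1 fell, 35.3% and 5.88%, against 22.4% and 25.2% of all genes tested. There were 3 rises without the variance trend or without pladienolide B replicate 1 or 2. Without DMSO replicate 3 or pladienolide B replicate 1 there were 2 falls. ITCH and CYLD, which act with or beside TNFAIP3 to take down the signal, had log2 fold changes of 0.37 and 0.28, and TNIP1, which binds TNFAIP3, fell by 0.30 on the log2 scale from a level of 9373 ± 599 adjusted reads in DMSO.

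The list of IkB-like proteins outside the main set was drawn loosely, as it also held ANKRD42 and the inhibitor-binding proteins NKIRAS1 and NKIRAS2. It had 2 rises and 2 falls among 6, and 1 fall without the variance trend. Rises and falls were 33.3% each, against 22.4% and 25.2% of all genes tested. The rises were those of ANKRD42 and NKIRAS2, and NFKBID did not pass (limma, adjusted p = 0.578). BCL3, a nuclear partner of the NFKB1 and NFKB2 products, fell from 340.0 ± 31.4 to 241 ± 27.5 adjusted reads (SD, n = 3), a log2 fold change of -0.50 (limma, adjusted p = 0.00088). NFKBIL1 fell by 0.30 on the log2 scale, whereas ANKRD42 had a log2 fold change of 0.57 and NKIRAS2, which binds inhibitor proteins, one of 0.37.

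Of 34 tested target genes, 20 rose and 5 fell, and without the variance trend in limma 12 rose and 3 fell. With the trend 58.8% rose and 14.7% fell, against 22.4% and 25.2% of all genes tested. CSF1, a growth factor of macrophages, rose from 339 ± 26.5 to 693 ± 80.2 adjusted reads (SD, n = 3), a log2 fold change of 1.02 (limma, adjusted p = 1.08e-07). CXCL1, a chemokine that attracts neutrophils, had a log2 fold change of 1.02 and 1362, 917 and 781 adjusted reads in pladienolide B replicates 1 to 3, all above the controls. The complement component C3 fell from 3060 ± 223 to 1148 ± 608 adjusted reads (SD, n = 3), a log2 fold change of -1.54 (limma, adjusted p = 1.34e-05), with 895, 1842 and 708 in the treated samples. CFLAR, an inhibitor of death receptor signalling, fell by 0.62 on the log2 scale. IL6 and SOD2, both textbook targets and named after their values were seen, had log2 fold changes of -0.21 and -0.24 that did not pass (limma, adjusted p = 0.207 and 0.0524).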

How the data were processed

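RNA was enriched by oligo-dT per the labels. The methods state trimming and alignment to hg38 with HISAT2, while the submitters' processing notes list hg19, HTSeq 0.12.4 and DESeq2. Positions of 99.8% of 35926 symbols overlapped those of GRCh38.p14. The signal per gene that the authors deposited is reads adjusted for library size, as edgeR computes them by quantile adjustment (common dispersion 0.0027). Inverting the adjustment recovered whole reads, to within 0.02, for 100% of values above 0, and repeating it returned each value within 4.9e-05. The authors' fold changes, p-values and q-values were not used.

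The adjusted values were tested with limma 3.58.1 (variance trend, log2 of value + 1) on genes kept by filterByExpr of edgeR 4.0.16 (minimum 10, total 15). Recovered reads were tested with edgeR and DESeq2 1.42.0 as alternatives (7738 and 6985 genes called, against 7695). The fits were tested on simulated data in which all genes shared the common dispersion of 0.0027 and no sample stood apart from its group. Such data lack the wider spread of DMSO replicate 2, so they do not show how the fits act on it. Named pathway genes are the up to 2 largest rises and 2 largest falls per list with adjusted p below 0.05 and a mean of at least 20. Genes of like pattern are the 3 with the highest correlation and a mean of at least 50. Members and lists were chosen with earlier results of these data known. Transcript lengths came from GENCODE on hg38.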

Additional observations from a re-analysis of the deposited data

How the results depend on the processing

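All of RELA, NFKBIB, NFKBIE and TNFAIP3 kept their direction and stayed past the threshold under all 13 alternatives, with adjusted p-values of at most 0.0247, 0.0154, 0.00466 and 0.0295 (limma without the variance trend). The number of these 10 genes called was 4 with other pseudocounts, filters, tools and factors, and 4 to 5 with 1 sample left out, 4 to 5 higher and 0 to 1 lower. NFKB2 without pladienolide B replicate 3 and NFKBIZ without replicate 1 were the additions. With 1 sample left out, log2 fold changes that did not pass crossed 0 for NFKB1 (-0.0286 to 0.0366), RELB (-0.1373 to 0.0754, and 0.0098 without pladienolide B replicate 3) and NFKBIA (-0.1214 to 0.0223). The cause was not tested. Between 6381 and 7855 genes were called in all, and no alternative moved the median of all genes by over 0.1 (log2).

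Pairing by replicate number was checked with the deviations from group means, which correlated at -0.018, -0.017 and 0.003, and 0 of 6 samples correlated best with their own number. These values gave no sign of pairing. With 3 samples per group, the check cannot settle whether samples with the same number were handled together. The replicate block left 7349 genes called and the same 4 of 10, and cannot move the differences of the 4 ratios, whose exact p-values were 0.25 to 0.5 with it. MAP3K8 did not pass in 7 alternatives, and NFKBIL1 and TLR3 each in 1. Rises of target genes, adaptors and brakes went from 20 to 12, 10 to 6 and 6 to 3 without the variance trend. Of the pathway genes, 18, LTA and LTB among them, had at most 12 reads in any sample and were not tested. The libraries held 22621338 to 26130882 reads each, and whether greater depth would let these genes be tested is not known.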

Other observations

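The 3 genes outside the set whose values over the 6 samples were most like the mean of the 4 that rose were CSF1 (Pearson r = 0.998), ZNF445 (r = 0.997) and ELP2 (r = 0.997). Likeness of this kind was common, with 672 of 13201 candidates, 5.09%, above 0.95, and all of these values share the 6 libraries and the difference between the groups.

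The share of called genes was described for genes with and without a kB match near a start. Among 1084 tested genes with a match, 23.2% were higher and 26.8% lower in pladienolide B by limma, and among 11114 with a sequence and no match 22.9% were higher and 26.2% lower.

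Several target genes had a pladienolide B replicate 3 at the level of the controls while the other treated samples lay above it, and were named after their values were seen. CXCL8, a chemokine, had 2154, 2222 and 2493 adjusted reads in DMSO and 3894, 3679 and 2430 in pladienolide B. CCL20, another chemokine, had 511, 555 and 636 in DMSO and 869, 1211 and 531 in pladienolide B. In contrast PLAUR and CCND1, also on the list, had nearly equal treated samples, with 5386, 5493 and 5015 and with 19990, 20128 and 20112 adjusted reads against at most 3382 and 15193 in DMSO.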
